A study of Mus musculus with 6 samples.

Results

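Dense distal clusters are stretches of the mouse genome in which 4 or more regions of open chromatin, each with a peak in all 6 libraries of the study and each more than 1 kb from the ends of protein-coding genes, followed one another at gaps of at most 12.5 kb. Peaks of the 6 per-library lists on chromosomes 1 to 19 that shared 1 bp or more were merged into 45562 regions, of which 23702 had a peak in every library and 12389 of those were distal. Stitching placed 818 of the 12389 distal regions, or 6.60%, into 158 clusters, and these 818 are called members. Another 3409 distal regions stood in groups of 2 or 3, and 8162 were solitary, stitched to no other region. Members were thus chosen by a measured value, the presence of a peak in all 6 libraries, together with the distance from gene ends and the spacing. Their number, span and place are therefore given as descriptions, and tests were made only on how many bases peaks covered, how they ranked and which libraries had the partly shared regions.

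The libraries are ATAC-seq libraries, in which the Tn5 transposase cuts accessible DNA and adds sequencing adapters to it. All came from retinas of C57BL/6 embryos at E14.5 (embryonic day), 3 from Atoh7 +/+ animals, called wild type, and 3 from Atoh7 SE/SE animals, called SE/SE, which carry a mutated Atoh7 shadow enhancer on both copies. Each library holds the retinas of 1 animal, which makes 3 animals per genotype. Atoh7 encodes the bHLH factor that retinal progenitors need to become ganglion cells, and a shadow enhancer is a second enhancer that overlaps in activity with another enhancer of the same gene.

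Groups of closely spaced accessible regions are often found around genes that control cell identity, where several enhancers act on 1 promoter, and stitching at this distance is a common way to define super-enhancers from histone or coactivator signals. Accessibility alone does not show enhancer activity, and tRNA, rRNA and snRNA genes are also accessible where they are transcribed. The retina at this age holds dividing progenitors together with newborn ganglion cells, amacrine and horizontal cells and cones. Its progenitors depend on homeobox and Sox factors such as Pax6, Six3 and Sox2. In whole tissue, a region open in more cells and a region more open in each cell cannot be told apart.

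The per-library lists held 31340, 34797 and 27873 peaks in wild type 1 to 3 and 39115, 42722 and 44242 in SE/SE 1 to 3, so every SE/SE list was longer than every wild-type list. The lists hold no read counts, and sequencing depth is unknown. Amplification took 17, 18 and 19 PCR cycles for wild type and 15, 16 and 16 for SE/SE, per the labels' protocols, so amplification and genotype cannot be told apart. Of 10 retinal marker genes 9 had a gene-end peak in all 6 libraries, against 0 of 3 lens, 1 of 3 endothelial, 0 of 2 microglia and blood, 2 of 3 pigment epithelium and 1 of 3 mesenchyme markers. The lens marker Foxe3 was listed in wild type 1 and SE/SE 1 to 3 but not in wild type 2 or 3, and Cryaa and Cryab were in no library. The mesenchyme markers had a peak for 1, 2 and 1 genes in wild type 1 to 3 and for 2, 3 and 3 in SE/SE 1 to 3, and the part of such cells in the results was not tested. At Atoh7, regions at chr10:63089257-63089634 and chr10:63090131-63090667 had a peak in 3 wild-type and 0 SE/SE libraries. Neither lies in a dense cluster.

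Of 919 annotated microRNA hairpins on chromosomes 1 to 19, 6 lay in cluster spans, in 5 clusters. The cluster beyond Mef2c holds Mir9-2, and the cluster nearest to Dpyd holds Mir137, both of them neuronal microRNAs that act in retinal and brain progenitors. Their mature sequences are shown because these microRNAs have known neural roles, with the seed, bases 2 to 8, in capitals, and come from RefSeq for GRCm38.p6.
mmu-miR-9-5p, chr13:83738821-83738843, plus strand: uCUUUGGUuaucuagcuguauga
mmu-miR-137-3p, chr3:118433901-118433923, plus strand: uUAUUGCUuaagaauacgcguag
The seeds differ, so the hairpins do not belong to 1 seed family. The Mir137 hairpin lay inside a member and so had a peak in 6 of 6 libraries, whereas the Mir9-2 hairpin was 544 bp from the nearest member and had a peak in 0 libraries.

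The other pair is promoters that lie in members. The gene table used for the 1 kb rule gives gene spans only, so a start site inside a gene's span is not a gene end, and on chromosomes other than 18, 40 of 778 members, or 5.14%, overlapped a RefSeq promoter window of a protein-coding gene (250 bases before to 50 after a start). The share was 10.7% for solitary regions. One such window is an internal start of Pax6 and another is a start of Six3. Capitals mark matches to the motifs ACAAAG and TGACAG, read on both strands; the run in Pax6 is TGACAG on the minus strand overlapping ACAAAG on the plus strand.
Pax6 internal promoter, chr2:105682213-105682512, plus strand: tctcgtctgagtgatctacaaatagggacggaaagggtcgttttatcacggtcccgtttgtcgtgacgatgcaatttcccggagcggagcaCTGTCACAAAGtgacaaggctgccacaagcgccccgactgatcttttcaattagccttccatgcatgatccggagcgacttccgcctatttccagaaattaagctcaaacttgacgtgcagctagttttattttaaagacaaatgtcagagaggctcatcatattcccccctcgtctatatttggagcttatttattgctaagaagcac
Six3 promoter, chr17:85620584-85620883, plus strand: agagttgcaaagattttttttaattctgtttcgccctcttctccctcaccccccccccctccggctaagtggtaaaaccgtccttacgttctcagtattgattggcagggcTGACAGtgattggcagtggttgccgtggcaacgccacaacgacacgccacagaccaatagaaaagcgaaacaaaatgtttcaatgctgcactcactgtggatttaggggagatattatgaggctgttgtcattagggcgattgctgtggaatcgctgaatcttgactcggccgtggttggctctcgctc
ACAAAG was in 18.6% and TGACAG in 19.0% of the 31396 promoter windows of this length, so both are common letters. The homeodomain core TAATTA had no match in either window. The same was true of the E-box forms CAGCTG and, with another centre, CAGATG. The Otx and Crx core TAATCC and the GC box GGGCGG had none either.

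The 158 clusters covered 3.14 Mb in all. Their span had a median of 18.3 kb and ran from 3.311 to 127.084 kb, with quartiles at 12.6 and 23.3 kb. Most were small: 93 held 4 members, 34 held 5, 16 held 6, 5 held 7 and 10 held 8 or more. Just under the threshold, 299 groups held 3 regions. The density had a median of 2.74 members per 10 kb, from 1.04 to 12.1. All 818 members overlapped a peak of the list the authors called on the wild-type libraries together, and all 818 a peak of the corresponding SE/SE list.

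Members lay in and between genes. Of 818 members 368, or 45.0%, were inside a protein-coding gene, against 52.2% of solitary regions. In 54 clusters every member was inside a gene, in 62 none was, and 42 had both. Members were nearer to gene ends, with a median distance of 15.7 kb against 28.0 kb for solitary regions, and in 28 clusters a gene-end region with a peak in 6 libraries stood between members. Median region width was 450 bp for members and 431 bp for solitary regions.

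**Figure D1:**
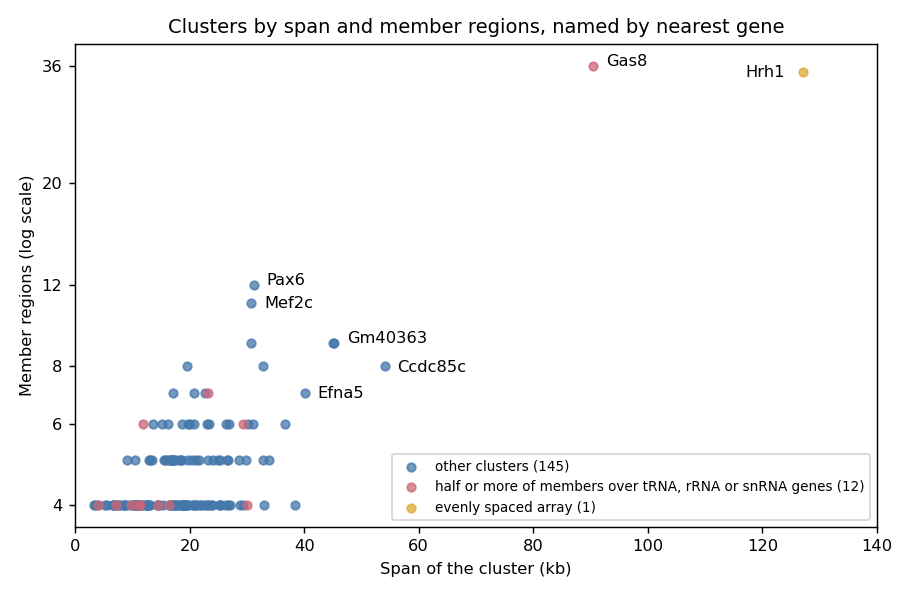
Each point is 1 of the 158 clusters, placed by its span in kb and its number of member regions on a log scale. Colours separate clusters whose members mostly cover tRNA, rRNA or snRNA genes, the evenly spaced array and the rest; the clusters nearest to Gas8 and Hrh1 hold 36 and 35 members, and the next, at Pax6, holds 12.

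The 2 clusters with most members went against the name of enhancer clusters, since both are arrays of repeated spacing, and the clusters are called dense distal clusters for that reason. The largest, chr8:123538741-123629194 near Gas8 (a subunit of the regulatory complex of motile cilia), spanned 90.5 kb and held 36 members, 33 of which lay over 5S rRNA genes. The span holds 48 of the 61 rRNA genes annotated on the autosomes, spaced at a median of 1698 bp, and its regions were spaced at a median of 1714 bp. Its members had a median own-list percentile (the rank of a peak's signal value within its own list) of 55.7, 47.4 and 32.3 in wild type 1 to 3 and 40.0, 47.7 and 44.6 in SE/SE 1 to 3. The share of its span under peaks was 21.2%, 17.8% and 13.7% in wild type and 15.9%, 17.9% and 17.1% in SE/SE, so the genotypes overlapped.

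The other, chr6:114497436-114624519 near Hrh1 (the histamine H1 receptor), was the longest cluster at 127.1 kb and held 35 members. All regions in its span, the 10 partly shared ones included, stood at a median spacing of 2438 bp. Every spacing was within 10% of a whole multiple of that value, against 0% to 57.1% of spacings in the 26 clusters of 6 or more regions that are neither arrays nor over RNA genes. No tRNA, rRNA or snRNA gene is annotated under its members. Its covered share was 6.91%, 6.62% and 5.12% in wild type and 6.70%, 9.03% and 8.31% in SE/SE, with the groups overlapping.

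Genes for small structural RNAs lay under members elsewhere too. In all, 73 of 818 members, or 8.92%, overlapped a tRNA (28), rRNA (33) or snRNA (12) gene, against 23 of 8162 solitary regions, or 0.282%. In 12 clusters with 87 members at least 50% of the members did, among them those nearest to Abt1 and Trim27 on chromosome 13 and to Fcgr3, Fcgr4 and Cfap126 on chromosome 1. tRNA genes were in 9 of the 12, snRNA genes in 3 and rRNA genes in 1. The cluster nearest to Snx6 on chromosome 12 had an snRNA gene under each of its 6 members, and its members ranked high in every library, at a median own-list percentile of 86.6, 88.0 and 83.0 in wild type and 90.7, 92.0 and 91.7 in SE/SE. Copies of these genes are nearly identical in sequence, so reads may not be assignable to 1 copy, and the sources used here do not give how such reads were treated.

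A further 3 clusters stood apart by signal, with members at or above a median own-list percentile of 95 in all 6 libraries. The one nearest to Alkbh8, chr9:2999953-3038345, had 95.1% to 97.2% of its span under peaks. The one nearest to Lrrc4c is chr2:98662182-98667383. The one nearest to Gm40363, chr6:47743456-47788746, held 9 members and had a median percentile of 99.6, 99.1 and 99.4 in wild type and 98.4, 98.2 and 98.2 in SE/SE. The Alkbh8 cluster is also 1 of 6 that begin within the first 3.5 Mb of their chromosome, with 2 nearest to Scaf8 and 1 each nearest to Gm51877, Pik3ip1 and 9230019H11Rik. No regions were left out for high signal or repeats, so these clusters remain in the counts unless stated.

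With the RNA gene clusters and the even array set apart, 145 clusters with 696 members remained. For the gene counts that follow, all 158 clusters were used. A gene counts as having a cluster when it leads most of the members, by holding them or by its nearest end. Such assignment does not show which gene a region acts on. Over all 20665 protein-coding genes of chromosomes 1 to 19, 152, or 0.736%, had a cluster, and so did 2.59% of the 5876 genes with at least 1 distal region in all libraries.

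Genes of retinal progenitors had clusters most often among the lists described. Of 24 progenitor genes 9 had one, namely Pax6, Six3, Sox2, Sox9, Hes5, Meis1, Nfia, Zic1 and Id3, and the median progenitor gene had 5 distal regions in all libraries, against 0 for all genes. Of 16 genes of dorsoventral and nasotemporal patterning 4 had one, Ephb2, Nr2f1, Nr2f2 and Efna5, and of 15 amacrine and horizontal cell genes 3 had one, Barhl2, Lhx9 and again Pax6. The lists were chosen with earlier results of these data known, so the counts are descriptions.

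Of 36 ganglion cell genes 1, Ebf3, had a cluster, a share near the background; 32 had a distal region in all libraries and the median was 3 regions. None of 19 neurogenic genes had a cluster, with a median of 1 region. None of the 19 genes on the axon guidance list had one, although all 19 had at least 1 distal region and the median was 4. Efna5 and Ephb2 were counted under patterning and had clusters, so the 0 holds for this list and not for all guidance genes. The counts were 0 of 12 for photoreceptor genes, 0 of 12 for bipolar and Muller glia genes, 0 of 9 for pigment epithelium and ciliary margin, 0 of 11 for lens, 0 of 15 for endothelial, microglia and blood, and 0 of 12 for mesenchyme and optic stalk.

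**Figure D2:**
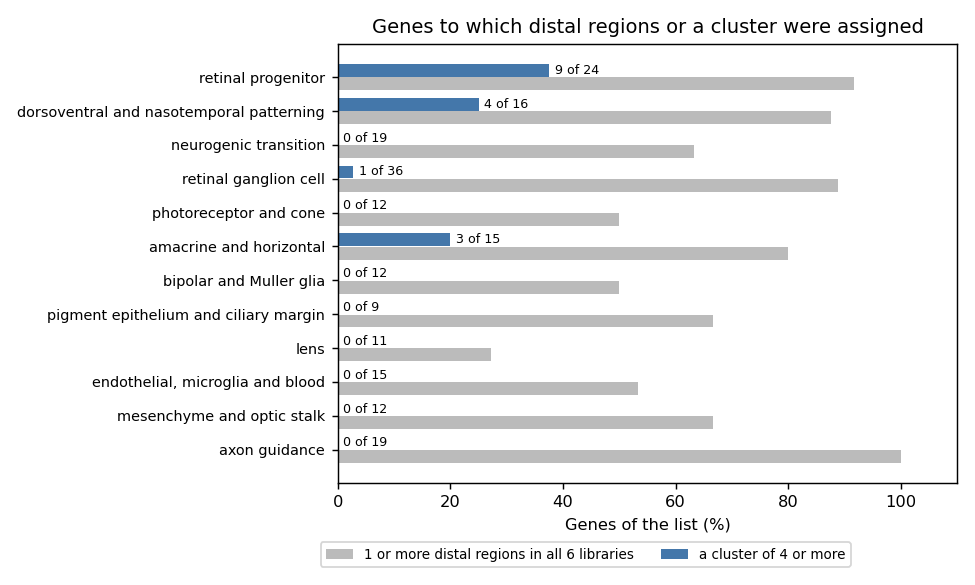
Bars give the percentage of each gene list's autosomal genes with 1 or more distal regions in all 6 libraries (grey) and with a dense cluster (blue, with counts). All 19 genes of the axon guidance list had a distal region and 0 had a cluster, whereas 9 of 24 progenitor genes had a cluster. The guidance ligand gene Efna5 and the receptor gene Ephb2 had clusters and are counted under patterning.

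Pax6 encodes the paired and homeodomain factor that is required for eye formation and for the multipotency of retinal progenitors. Its cluster, chr2:105659467-105690634, held the most members after the 2 arrays, 12 in 31.2 kb, with 8 of them inside the gene. The strongest member by rank, chr2:105659467-105661394 upstream of the gene, had an own-list percentile of 93.2, 93.6 and 90.8 in wild type 1 to 3 and 95.6, 96.3 and 95.7 in SE/SE 1 to 3. The member that holds the internal promoter printed above, chr2:105681972-105682708, was at 76.2, 80.8 and 78.0 in wild type and 79.4, 79.0 and 82.1 in SE/SE. The weakest in wild type 1, chr2:105673773-105673980 inside the gene, was at 6.62 in that library and at 28.1, 19.9, 25.5, 36.4 and 39.3 in the others. Peaks covered 21.4%, 24.9% and 21.4% of the Pax6 cluster in wild type and 30.5%, 35.8% and 33.6% in SE/SE, without overlap.

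A second cluster nearest to Pax6 lay inside the neighbouring gene Elp4, which encodes a subunit of the Elongator complex and is known to hold distant Pax6 enhancers. It is chr2:105779378-105804916, with 4 members that were 80968 to 99648 bp from the nearest gene end. Peaks covered 3.97%, 4.397% and 3.38% of it in wild type and 5.05%, 5.01% and 5.56% in SE/SE. The groups did not overlap, although the values lay within a narrow range.

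Six3 encodes a homeodomain repressor of the early eye field. Its cluster, chr17:85608500-85629219, held 7 members in 20.7 kb, 5 of them inside the gene span. The highest-ranked member in every library was the one downstream of the gene, chr17:85628586-85629219, at 81.0, 82.6 and 77.4 in wild type and 83.1, 85.3 and 85.6 in SE/SE. The member with the promoter printed above, chr17:85620602-85621620, was at 78.5, 76.3 and 72.8 in wild type and 78.9, 79.0 and 81.5 in SE/SE. Covered share was 19.2%, 21.8% and 20.04% in wild type and 23.8%, 23.0% and 27.3% in SE/SE.

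Sox2, the HMG-box factor of neural progenitors, had clusters on both sides, chr3:34639304-34648020 and chr3:34661267-34679219, with 4 members each and none in a gene. The first ranked low, with a median percentile of 28.6, 29.2 and 10.1 in wild type and 36.7, 45.1 and 42.7 in SE/SE, and the second stood at 38.4, 47.9 and 27.3 against 54.5, 61.1 and 63.2. Sox9, a progenitor and Muller glia factor, had its cluster at chr11:112973288-112992270, 185531 to 203970 bp from the gene, and those 4 members ranked at 68.8, 68.4 and 64.1 against 73.5, 76.2 and 78.0. These ranks come from lists of unequal length and are not compared between genotypes. Meis1, a TALE homeobox gene of eye progenitors, had 4 members at chr11:18871236-18883818, covered to 20.9%, 24.3% and 17.4% in wild type and 26.9%, 28.9% and 34.99% in SE/SE.

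Other progenitor genes had 4 members each. Hes5, an effector of Notch signalling, had its cluster at chr4:154944338-154958995, Zic1 at chr9:91350852-91362605, Nfia (a nuclear factor I gene of late progenitors) at chr4:97771803-97778847 inside the gene, and Id3, an inhibitor of bHLH factors, at chr4:136135024-136160394. The clusters of Sox2, Sox9, Hes5, Zic1, Nfia and Id3 fall outside the rule that chose clusters to name and are given because they complete the progenitor list.

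**Figure D3:**
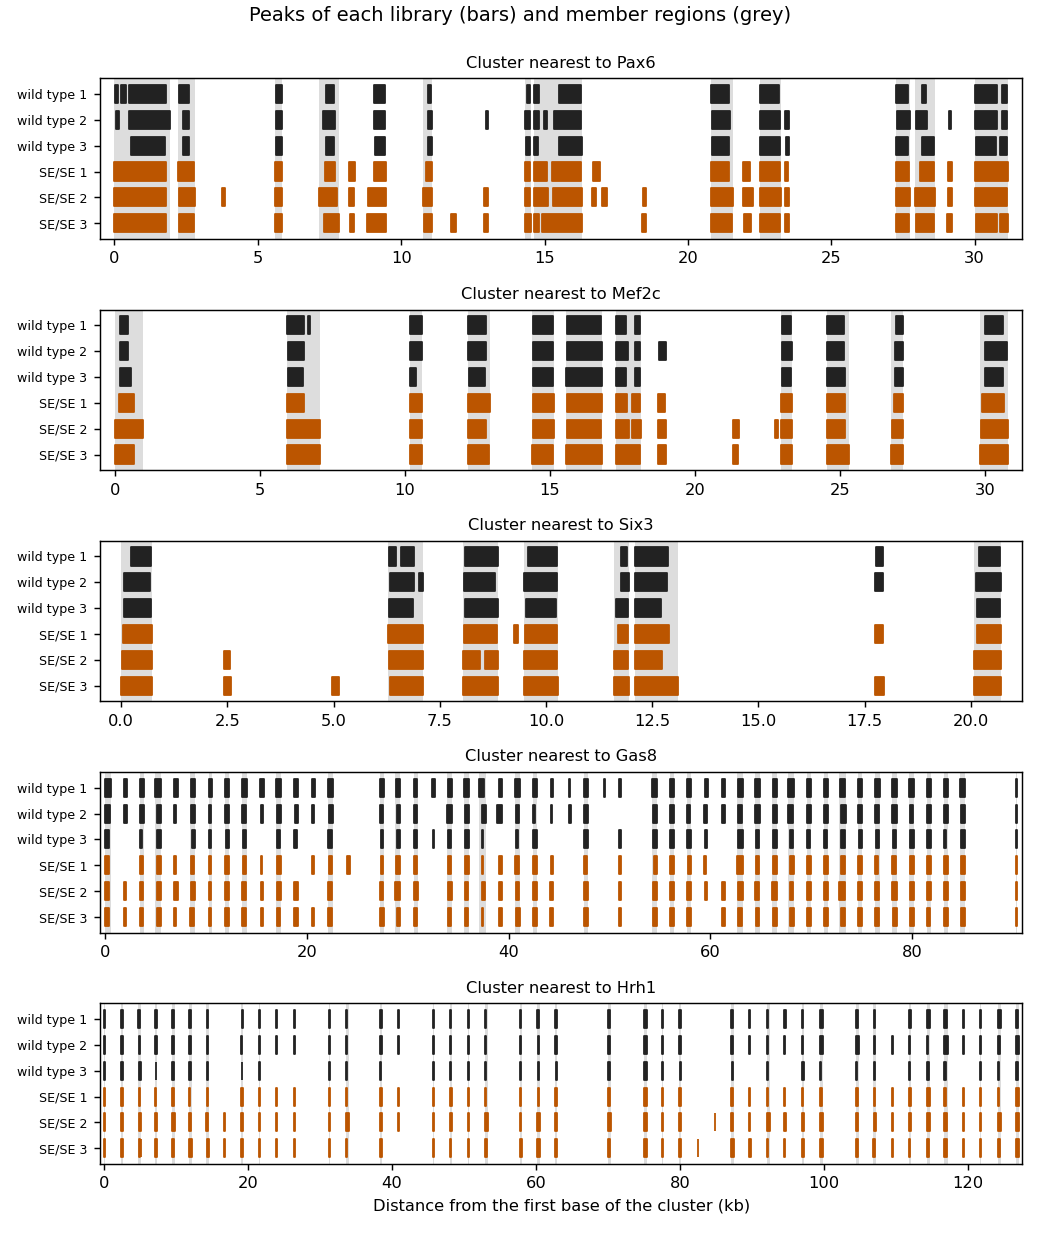
Each panel shows 1 cluster from its first base in kb, with peaks of the 3 wild-type (black) and 3 SE/SE (orange) libraries as bars and member regions in grey. The clusters at Pax6, Mef2c and Six3 have unevenly spaced regions of varied width, whereas those near Gas8 and Hrh1 have narrow regions at even steps; peaks outside the grey are partly shared regions or, at Pax6, a region in all 6 libraries near a gene end.

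The patterning genes with clusters encode nuclear receptors and Eph signalling molecules that are graded across the retina. Nr2f2 had 8 members at chr7:70329511-70362245, covered to 12.1%, 13.5% and 10.7% in wild type and 14.2%, 18.0% and 17.4% in SE/SE. Efna5, which encodes the guidance ligand ephrin-A5, had 7 members in 40.1 kb at chr17:62844371-62884489, covered to 13.8%, 16.6% and 14.1% against 17.9%, 20.8% and 20.9%. Neither pair of groups overlapped. Outside the naming rule, Nr2f1 had 6 members at chr13:78194793-78210944, covered to 34.5% to 40.0% in wild type and 43.2% to 45.4% in SE/SE, and the receptor gene Ephb2 had 4 members inside the gene.

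Among genes of neurons, Barhl2, a homeobox gene of amacrine and ganglion cell subtypes, had 5 members at chr5:106454388-106472706. Peaks covered 10.8%, 15.6% and 12.3% of it in wild type and 19.7%, 24.3% and 26.0% in SE/SE, without overlap. Ebf3, which encodes an EBF-family factor of ganglion and amacrine cells, had 5 members inside the gene at chr7:137301533-137319174. They were low in rank, with a median percentile of 17.6, 28.2 and 23.5 in wild type and 39.7, 41.0 and 53.0 in SE/SE. Lhx9, a LIM homeobox gene, had 4 members inside the gene at chr1:138831387-138843878, at 28.7, 36.3 and 7.21 in wild type and 48.4, 52.8 and 54.1 in SE/SE.

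Several of the largest clusters were at genes on none of the lists. The cluster beyond Mef2c, a MADS-box transcription factor gene, held 11 members at chr13:83714885-83745677, all 47806 to 77627 bp from the gene and around Mir9-2, whose sequence is printed above. Its members ranked high, with a median percentile of 68.8, 68.1 and 63.2 in wild type and 74.6, 81.8 and 82.7 in SE/SE. A second cluster, chr13:83869025-83885416, held 4 members farther on. The cluster with Mir137, chr3:118425819-118434558, lay 127551 to 136078 bp from the end of Dpyd and was covered to 12.1%, 14.4% and 10.8% in wild type and 18.3%, 23.4% and 22.3% in SE/SE, without overlap.

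Gse1 held 2 clusters of 9 members, at chr8:120534897-120565590 and chr8:120476781-120521790, for which Gins2 has the nearest gene end. Bbc3, a pro-apoptotic BH3-only gene, had 8 members at chr7:16294829-16314408 and no partly shared region. Ccdc85c had 8 members spread over 54.0 kb at chr12:108238677-108292719. Kdm6b, which encodes a histone H3 lysine 27 demethylase, had 7 members inside the gene at chr11:69401280-69418286, covered to 14.05%, 18.5% and 14.1% in wild type and 22.5%, 22.2% and 23.6% in SE/SE. Tspan14, a tetraspanin gene, had 6 at chr14:40949064-40979311. Celf4, an RNA-binding protein gene, had 3 clusters and was the gene with most clusters.

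The cluster spans also held 267 partly shared regions, those with a peak in 1 to 5 libraries, of which 254 were distal. That is 1.22% of the 21860 partly shared regions. In 110 clusters there was at least 1 and in 48 there was none, with a median of 1 and a maximum of 14, in the 5S rRNA array. The Hrh1 array and the Pax6 cluster held 10 each, Gm40363 held 9 and the cluster nearest to Rhof held 7.

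Each SE/SE list had peaks in more of them than any wild-type list. Of the 267, 75, 102 and 34 had a peak in wild type 1 to 3 and 140, 197 and 214 in SE/SE 1 to 3. The means were 70.3 ± 34.2 (SD, n = 3) and 184 ± 38.8 (SD, n = 3), a difference of 113. The exact two-sided permutation test gave p = 0.1, the smallest that 3 against 3 allows, and 0.1 after Benjamini-Hochberg adjustment over 4 genotype tests, so no genotype test here can pass 0.05. When each list was shortened to the 27873 highest-signal peaks, the length of the shortest list, the difference turned to -11 (exact permutation p = 0.1), so its direction depended on list length. Regions and clusters were built anew there, with 99 partly shared regions in 121 clusters.

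**Figure D4:**
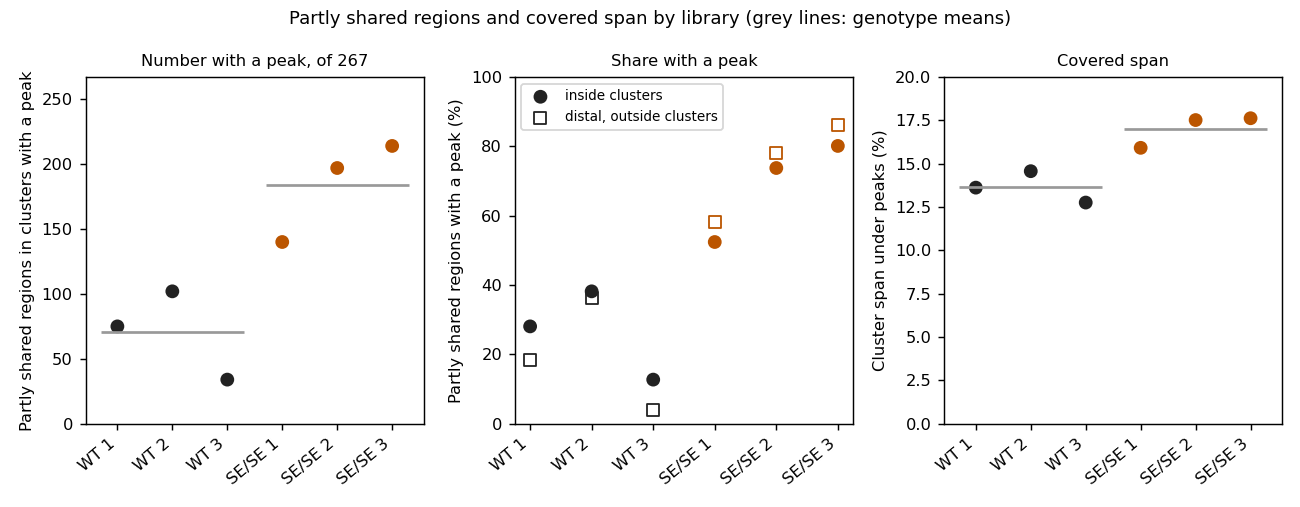
Points are the 6 libraries: the number of the 267 partly shared regions with a peak (left), their share inside clusters beside that of distal partly shared regions outside (middle, %), and the share of cluster span under peaks (right, %). Grey lines are genotype means; SE/SE libraries stand above wild type in each panel, and inside shares lie above outside shares in wild type and below them in SE/SE.

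In these libraries the genotypes stood closer together inside clusters than outside. Inside, 28.1%, 38.2% and 12.7% of partly shared regions had a peak in wild type 1 to 3 and 52.4%, 73.8% and 80.1% in SE/SE 1 to 3. Of the 18914 distal partly shared regions outside, 18.3%, 36.2% and 4.07% had one in wild type and 58.3%, 78.2% and 86.2% in SE/SE. The inside share was thus above the outside share in each wild-type library, by 9.76, 2.01 and 8.67 percentage points, and below it in each SE/SE library, at -5.83, -4.39 and -6.05 points. The difference of these differences was -12.2 points (exact permutation p = 0.1, adjusted 0.1), without overlap of the groups.

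The values behind this lay in few clusters. Regions with a peak in more wild-type than SE/SE libraries numbered 27 of 267, or 10.1%, against 1.9% of all partly shared regions and 1.75% of distal ones outside clusters. Of the 27, 8 lay in the Gm40363 cluster, 5 each in the 5S rRNA array near Gas8, the cluster nearest to Gm51877 and the clusters nearest to Scaf8, and 1 each in 4 other clusters. The first Scaf8 cluster, chr17:3010033-3030051, had a peak in 4, 2 and 3 of its 5 partly shared regions in wild type and in 2, 1 and 0 in SE/SE. The Gm51877 cluster, chr11:3184212-3197081 inside Sfi1, was covered to 69.3%, 63.6% and 74.6% in wild type and 64.1%, 49.8% and 35.8% in SE/SE.

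The 12 RNA gene clusters, the even array, the 6 clusters at chromosome starts and the 3 of highest signal make 21 distinct clusters, a grouping made after the data were seen. They held 65 partly shared regions, 26 of which leaned to wild type, and the other 137 clusters held 202, of which 1 did, or 0.495%. In those 137 clusters 17.8%, 34.2% and 7.43% of partly shared regions had a peak in wild type 1 to 3 and 54.5%, 79.7% and 87.6% in SE/SE 1 to 3. The difference from outside was then -0.393 points. Since the 21 clusters hold 26 of the 27 regions leaning to wild type and were grouped with values in view, this is a description of where the difference lies and not a test.

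Regions with a peak in 3 SE/SE and 0 wild-type libraries numbered 30 of the 267 inside clusters, or 11.2%, in 26 clusters. Over all partly shared regions the share was 17.1%, over distal ones outside clusters 17.5% and over all 45562 regions, shared ones included, 8.22%, so among partly shared regions the clusters were not above the background. In the 137 clusters the share was 13.4%, or 27 of 202. None of the 267 had a peak in 3 wild-type and 0 SE/SE libraries, where the background was 0.0686% of all partly shared regions, 0.074% of distal ones outside clusters and 0.0329% of all 45562 regions. The SE/SE-only count was 59 without wild type 2 and 70 without SE/SE 1. Only the libraries left had to meet the call there, which is looser than the call behind the 30. Of the 158 clusters, 4 held 2 SE/SE-only regions, those at Pax6, Gse1, Zeb2 and Meis1.

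In the Pax6 cluster, SE/SE-only regions at chr2:105667652-105667851 and chr2:105681405-105681743 ranked low, at 26.4, 18.7 and 18.9 and at 16.7, 28.7 and 33.5 in SE/SE 1 to 3. The first lies 1045 bp from the gene end. Of the 10 partly shared regions there, 0, 3 and 1 had a peak in wild type and 5, 9 and 7 in SE/SE. Zeb2, a zinc-finger homeobox gene of neural development, had 5 members inside the gene at chr2:45096710-45116396, and both of its partly shared regions were SE/SE-only, at percentiles of 28.2, 40.6 and 29.4 and of 30.6, 13.5 and 17.0. Its covered share was 13.8%, 15.7% and 13.7% in wild type and 21.7%, 23.7% and 23.6% in SE/SE. At Meis1, 0, 1 and 0 of 5 partly shared regions had a peak in wild type and 4, 4 and 4 in SE/SE, and the SE/SE-only regions were at or below the percentile of 36.5.

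Peaks covered 13.6%, 14.6% and 12.8% of the total cluster span in wild type 1 to 3 and 15.9%, 17.5% and 17.6% in SE/SE 1 to 3. The means were 13.7% ± 0.906 (SD, n = 3) and 17.0% ± 0.957 (SD, n = 3), a difference of 3.37 points without overlap (exact permutation p = 0.1, adjusted 0.1). At equal list length clusters were built anew, 121 with 612 members, and the difference over those other spans was 2.65 points. By cluster, with the full lists, the covered share was larger in all 3 SE/SE than in all 3 wild-type libraries in 127 of 158 and larger in all 3 wild-type libraries in 2, those nearest to Gm40363 and 9230019H11Rik. Over these same 158 spans but with lists of equal length, a setting added after the data were seen, these numbers were 113 and 4. The clusters at Pax6, Meis1, Nr2f2, Efna5, Nr2f1, Barhl2, Zeb2, Kdm6b and Mir137 named here were still covered more in every SE/SE library, whereas at Six3 the groups overlapped. At full list length, 63.4% of all single regions in 6 libraries were covered more in every SE/SE library. No share outside clusters was taken at equal list length, so these counts are not shown to be particular to clusters.

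The members' own covered bases were mostly larger in SE/SE, as over all regions, but at a lower share. They were larger in all 3 SE/SE than in all 3 wild-type libraries for 473 of 818 members, or 57.8%, against 63.4% of all regions in 6 libraries and 67.1% of solitary distal regions. The reverse held for 11 members, or 1.34%, against 0.236% and 0.282%. Of these 11, 10 were among the 696 members outside RNA gene clusters and the array, or 1.44%, and 1 was in RNA gene clusters. The 696 still include the clusters at chromosome starts and those of highest signal, such as Gm40363 and 9230019H11Rik. The 10 were not divided between those clusters and the rest. Among the 696 members outside RNA gene clusters and the array, 449, or 64.5%, had larger covered bases in SE/SE, against 17 of 87 members in RNA gene clusters, or 19.5%, and 7 of 35 in the Hrh1 array.

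The median own-list percentile of members was 48.0, 51.7 and 41.1 in wild type and 56.1, 60.4 and 62.0 in SE/SE, a difference of 12.6 (exact permutation p = 0.1, adjusted 0.1) without overlap. It turned to -1.48 at equal list length, with clusters built anew (exact permutation p = 0.2). Members under the 25th percentile of their list numbered 114, 56 and 216 in wild type and 28, 14 and 11 in SE/SE.

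Members did not rank clearly apart from solitary regions. Solitary distal regions had medians of 46.6, 52.5 and 39.5 in wild type and 58.1, 61.6 and 63.2 in SE/SE. Clustered minus solitary, the medians differed by 1.33, -0.858 and 1.54 in wild type 1 to 3 and by -2.07, -1.14 and -1.25 in SE/SE 1 to 3. The positive values were thus all in wild type, and the test over 6 libraries pools opposite signs. A split by genotype was not tested. The mean difference was -0.409 ± 1.49 (SD over 6 libraries), positive in 2 of 6. The exact sign-flip permutation test gave p = 0.531, adjusted 0.531. Its sign depended on which regions were counted. It was 1.49 without the RNA gene clusters and the array, which were classed after values were seen, and 2.19 beyond 5 kb from gene ends. In each of these settings the exact sign-flip test gave p = 0.03125, adjusted 0.03125. At a 5 kb stitching distance the difference was -0.964, with an exact sign-flip p of 0.406.

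Members had somewhat more bases under peaks in each library, by a difference that missed the threshold after adjustment. Bases were summed over all peaks of a library in a region, so this is not the length of single peaks. The median bases covered per region were 316, 336.5 and 287 in wild type and 384.5, 415 and 416.5 in SE/SE for members, and 282, 323 and 253 and then 363, 401 and 410 for solitary regions. Members were above solitary regions in 6 of 6 libraries, by 20.6 ± 11.4 bp (SD over libraries). The exact sign-flip permutation test gave p = 0.03125, and 0.0625 after adjustment over 2 tests, which misses 0.05.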

How the data were processed

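ATAC-seq peak lists of 6 libraries and 2 lists made on the libraries of a genotype together were used as deposited. Per the submitters' processing notes, cutadapt, BWA, Genrich 0.5, bedtools 2.27.0 and limma were used on GRCm38 (mm10), and each tool's settings are not given in the sources used here. The authors' peak files give each peak a signal value, a score and a −log10 p. The score deposited was 1000 times signal over width, capped at 1000, for 100% of peaks within 1. The deposited −log10 columns were read and not tested. Signal values were ranked only within their own list. The lowest deposited signal was 20.

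From these, regions were merged and stitched by the rule stated in the opening with Python 3.11.15, numpy 2.4.6 and pandas 2.3.3. Distances to protein-coding genes, RNA genes, microRNAs and promoter windows came from RefSeq tables for GRCm38.p6. Library values were compared by exact two-sided permutation over 3 and 3 libraries (20 assignments) or sign flips over 6, with Benjamini-Hochberg adjustment over 4 and 2 tests. The code was tested on simulated data. The p-values cover the spread between animals. The per-library lists cover narrow peaks only, and no read counts were used. The −log10 columns of the lists entered no result.

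Members and gene lists were chosen with earlier results of these data known. Clusters named are the 12 with most members, the 5 longest, the 8 with most partly shared regions, the 5 with most SE/SE-only regions and the 2 largest for each list; others are said to be chosen otherwise or serve a count. RNA gene clusters (50% or more of members over such genes), the even array (80% or more of steps even, 10 or more regions), clusters at chromosome starts and clusters at the 95th percentile were classed after values were seen. Sequences of regions other than promoters and microRNAs are not printed, and none from chromosome 18. A result on 1 named gene is not reported here.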

Additional observations from a re-analysis of the deposited data

How the results depend on the processing

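Counts followed the stitching rule. At a 5 kb stitching distance there were 61 clusters, 319 members, 84 partly shared regions and 9 SE/SE-only regions, and at 25 kb 318, 1676, 702 and 103. Beyond 5 kb from gene ends there were 91, 493, 141 and 13. With 3 or more regions per cluster there were 457, 1715, 426 and 53, and with 6 or more 31, 276, 92 and 7. With signal of 50 or more there were 94 clusters, 488 members and 139 partly shared regions. At equal list length, with clusters built anew, there were 121 clusters, 612 members and 99 partly shared regions, 3 SE/SE-only and 4 wild-type-only. There the genotype differences were -11 for the count of partly shared regions, -1.48 for the members' percentile and 2.65 points for span covered. Leaving out each library in turn gave 159 to 217 clusters, 34 to 70 SE/SE-only and 0 to 3 wild-type-only regions, differences of 104.8 to 138 in the count and -15.0 to -10.3 points inside minus outside, and a clustered minus solitary percentile of -0.727 to 1.82. The SE/SE-only count was 59 without wild type 2 and 70 without SE/SE 1. It was 42 and 41 without wild type 1 and 3, and 36 and 34 without SE/SE 2 and 3. With a library left out, SE/SE-only meant a peak in every SE/SE library left and in no wild-type library left. Wild-type-only meant the reverse. Each is a looser call than with all 6 libraries, so these counts and the main ones are not like for like. Beyond this, the cause of the spread was not tested. The difference in inside minus outside share was negative in every alternative run, from -29.3 to -0.393 points, the latter without the 21 clusters.

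Clustered minus solitary percentile changed sign to 0.151 at 25 kb, 0.308 with peaks merged at 100 bp shared, 0.456 at signal 50, 0.0954 at equal list length, 2.19 beyond 5 kb, 1.49 without RNA gene clusters and the array and 0.644 without the 21 clusters. The difference in median bases covered per region, clustered minus solitary, was 36.2 bp beyond 5 kb and 27.9 bp without RNA gene clusters and the array. Leaving out the RNA gene clusters and array, leaving out the 21 clusters, taking only distal partly shared regions, and covered share by cluster at equal list length were chosen after seeing the data. Of the tested values under alternatives 94 kept their direction and side of 0.05, 10 changed sign and 2 kept direction and newly passed. The exact genotype tests cannot go below p = 0.1, or 0.25 with the replicate block, so their side of 0.05 was fixed in advance. The replicate block also leaves the differences unchanged by construction. The tally is thus no measure of how firm the genotype results are. Clustered minus solitary percentile changed sign and also passed beyond 5 kb and without RNA gene clusters and the array. The exact sign-flip test there gave p = 0.03125, adjusted 0.03125, in each setting. Of the counts 59 stayed within 1.5 times and 31 did not. Where a setting does not itself remove regions, the cause was not tested.

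Replicate numbers did not pair the libraries: correlations of deviations at the same number were 0.0117, 0.115 and -0.197. With the replicate block the differences were 113, -12.2, 3.37 and 12.6, with exact p = 0.25, the smallest for 3 pairs. Depth is unknown, so a region without a peak is not shown to be closed, and list length, amplification and genotype cannot be told apart.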

Other observations

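The lists called on the libraries of a genotype together held more peaks in the clusters than the per-library lists. In the cluster spans the wild-type list had 1269 peaks, 449 of which met no peak of a single library, and the SE/SE list had 1297, 483 of which met none. The joint lists are single lists without replicates, so no test was made.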
